A study of Mus musculus with 7 samples.

Results

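This report describes 10 p53 target and GADD45 genes in mouse lung after bleomycin, which are Cdkn1a, Mdm2, Ccng1, Trp53inp1, Phlda3, Eda2r, Bax, Gadd45a, Gadd45b and Gadd45g. They were picked by name out of the 55401 genes of the count table, with the knowledge that Gadd45g had been lower in the mice exposed to hyperbaric oxygen (HBO). That difference therefore chose the set and is given here as a description without a P value. Right lung lobes came from 4 mice in the BLM group and 3 in the BLM+HBO group, with each library taken as 1 mouse. All were male C57BL/6 mice of 6 to 8 weeks that had received a single dose of bleomycin, a DNA-breaking antibiotic that scars the lung, into the trachea, and all tissue was taken on day 21. From day 7 the BLM+HBO mice breathed oxygen at 2.5 ATA for 90 min per day over 14 days. The sample records place the BLM mice in the chamber without pressurized pure oxygen, whereas the methods describe them as untreated, and which of these applied was not settled. Mice that had lost too little weight after bleomycin were left out by the authors, and no lung without bleomycin was analysed here, so the comparison says nothing of what bleomycin itself did to these genes.

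The protein p53, encoded by Trp53, is a transcription factor that is held at a low level by the ubiquitin ligase MDM2 and accumulates when DNA is damaged. It then binds a DNA site made of a pair of similar sequences, called half-sites, and switches on genes that stop the cell cycle, repair DNA or kill the cell, among them Mdm2 itself, which closes a feedback loop. Gadd45a, Gadd45b and Gadd45g encode small acidic proteins of 1 family, first known from cells arrested in growth or carrying damaged DNA, which bind PCNA, CDK1 with cyclin B and the kinase MAP3K4 upstream of p38 and JNK. Gadd45a is a classical p53 target, while Gadd45b and Gadd45g are known mainly as genes induced by cytokines and stress. In the lung, bleomycin is widely used to provoke DNA damage, epithelial injury and fibrosis.

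The promoter windows show where the 10 genes differ in sequence near their starts. RefSeq promoter sequences on GRCm38.p6, running from 250 bases before to 50 bases after a transcription start, were matched by symbol for 9 of the 10 genes, with 2 starts for Cdkn1a, and Trp53inp1 had no entry. Both strands were searched for the p53 half-site, the TATA box (TATAAA) and the CCAAT box (CCAAT), and positions are counted from the start base as 0. Also searched were the CRE core (TGACG), the AP-1 site (TGANTCA), the NF-kB site (GGGRNNYYCC) and the GC box (GGGCGG). These occurred in 20.81%, 7.81%, 8.46% and 35.66% of all promoters. Of these, the Gadd45g window held none and the Gadd45b window a GC box only. The AP-1 and NF-kB sites were in none of the windows. At least 1 p53 half-site stood in the windows of 5 of the 9 genes, which were Cdkn1a, Mdm2, Ccng1, Bax and Gadd45a, compared with 8.36% of 32851 mouse promoters and 9.55% of 27025 genes. The windows of Phlda3, Eda2r, Gadd45b and Gadd45g held none. Each match is printed 5′ to 3′ on the strand of its gene with 10 bases on either side, and the capitals mark the half-site.
Cdkn1a, -73 to -64, chr17:29090896-29090925, plus strand: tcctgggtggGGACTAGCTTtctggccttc
Cdkn1a, -51 to -42, chr17:29090918-29090947, plus strand: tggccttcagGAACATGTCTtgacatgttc
Mdm2, -186 to -177, chr10:117710925-117710954, minus strand: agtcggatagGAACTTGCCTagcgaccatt
Ccng1, -185 to -176, chr11:40755452-40755481, minus strand: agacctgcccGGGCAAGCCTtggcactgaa
Bax, -201 to -192, chr7:45467080-45467109, minus strand: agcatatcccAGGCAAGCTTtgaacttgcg
Gadd45a, -40 to -31, chr6:67037428-67037457, minus strand: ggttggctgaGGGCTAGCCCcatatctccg

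Cdkn1a was the only one of these genes with a pair of half-sites, separated by 12 bases, and a pair with at most 13 bases between them stood in 24 promoters (0.0731%). The second Cdkn1a match also opened a 20-base site of adjoining half-sites that departed from the pattern at 1 base, and 29 promoters (0.0883%) held such a site. A site of that kind was also found at Ccng1. Both are printed because they are the closest matches to the full p53 site among the windows.
Cdkn1a, -51 to -32, chr17:29090928-29090947, plus strand: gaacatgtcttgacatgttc
Ccng1, -195 to -176, chr11:40755462-40755481, minus strand: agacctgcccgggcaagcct
The Cdkn1a site lies before the upstream of its 2 RefSeq starts, which is 2790 bases ahead of the downstream one. The window of the downstream start held no half-site. The stretch from -250 to -11 of the upstream start, chr17:29090729-29090968 on the plus strand, is given with both half-sites in capitals.
Cdkn1a, upstream start: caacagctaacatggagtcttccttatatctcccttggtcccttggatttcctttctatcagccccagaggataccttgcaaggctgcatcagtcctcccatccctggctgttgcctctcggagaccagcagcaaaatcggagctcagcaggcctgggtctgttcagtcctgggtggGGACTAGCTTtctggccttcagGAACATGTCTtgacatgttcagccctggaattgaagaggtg

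Gadd45b and Gadd45g shared a TATA box, which was also found at Eda2r and in 13.62% of all promoters. The capitals in the next pair of windows mark it.
Gadd45b, -46 to -41, chr10:80930033-80930062, plus strand: cccgggaagtcaTATAAAccgctcgcagcg
Gadd45g, -27 to -22, chr13:51846636-51846665, plus strand: gccgagcctgtcTATAAAagggctctcccg
The Gadd45g stretch from -250 to -11, chr13:51846425-51846664 on the plus strand, is printed whole because Gadd45g is the gene on which the comparison turns. Its CCAAT box at -78 to -74 and its TATA box are in capitals, and a CCAAT box occurred in 37.41% of all promoters.
Gadd45g: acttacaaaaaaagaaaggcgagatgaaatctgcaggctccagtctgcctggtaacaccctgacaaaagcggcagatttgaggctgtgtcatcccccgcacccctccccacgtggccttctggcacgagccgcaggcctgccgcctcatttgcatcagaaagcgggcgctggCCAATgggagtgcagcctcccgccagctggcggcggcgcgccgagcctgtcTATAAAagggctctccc
A window without a match says only that these letters are not in it, and sites further away or within the genes were not searched.

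**Figure D1:**
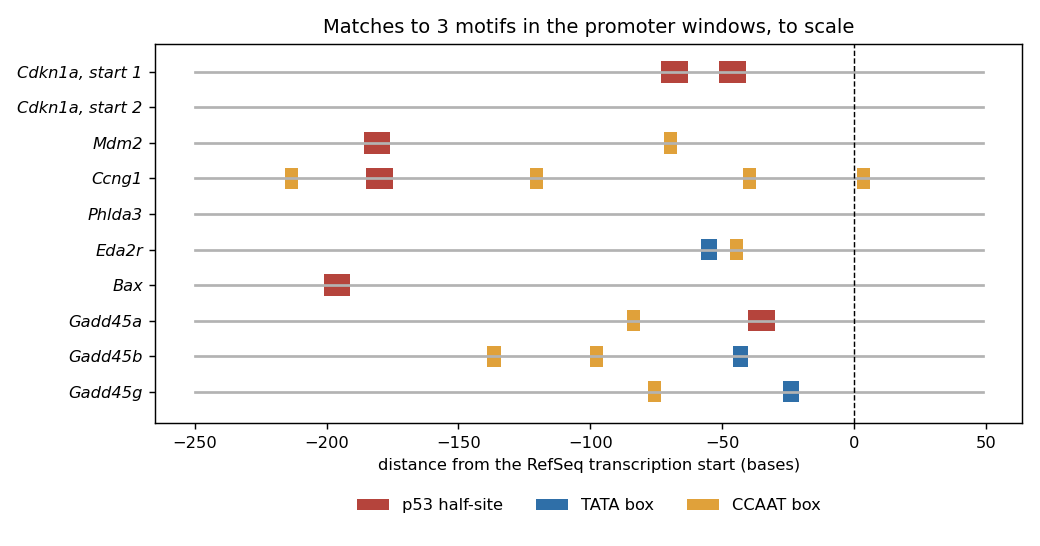
Matches to the p53 half-site, the TATA box and the CCAAT box in the 10 promoter windows of 9 genes, plotted by distance in bases from the RefSeq transcription start (dashed line), with each grey line a window of 300 bases and each box a match to scale. The p53 half-site stands in 5 genes, with 2 matches at the upstream start of Cdkn1a, and the TATA box in Eda2r, Gadd45b and Gadd45g.

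The libraries held between 18157161 and 26365969 counted reads. Markers of the alveolar AT2 and AT1 cells were abundant in every library, with summed levels of 9534 to 29120 CPM and 4337 to 6114 CPM. Within each group, every pair of libraries differed beyond sampling noise (chi-square per gene 22.1 or more), so each mouse counted as a replicate. The lowest values of all pairs were between the groups, at 13 for BLM 4 with BLM+HBO 2 and 19 for BLM 3 with BLM+HBO 2. Against BLM+HBO 1 and BLM+HBO 3, BLM+HBO 2 was at 64.3 and 57.5. BLM+HBO 2 stood apart from its group, at -0.996 on a first principal component (37.3% of the variance) that put BLM+HBO 1 at 54.8, BLM+HBO 3 at 37.8 and the BLM mice from -47.6 to -6.08. By edgeR, 0% of the 17465 tested genes passed an adjusted P below 0.05 (155 genes by DESeq2), 10.7% had an unadjusted P below 0.05, and 6.29% also differed more than 1.5-fold, which is the call used here (2.89% lower and 3.4% higher in BLM+HBO). All 10 genes passed the filter on low counts and were tested. Levels are given in CPM, read counts scaled to a common library size, which compare a gene between mice, and in TPM, which also correct for gene length and compare genes with each other. Gene positions are on GRCm38, as in the count table.

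Gadd45g, on chr13:51846678-51848468 (GRCm38, plus strand, ENSMUSG00000021453.2), was the member that stood apart. Its level was 91.7, 101, 136 and 90.4 CPM in BLM 1 to BLM 4 and 42.0, 62.0 and 49.99 CPM in BLM+HBO 1 to BLM+HBO 3. The highest BLM+HBO mouse was thus below the lowest BLM mouse, and the means were 105 ± 21.5 CPM (SD, n = 4) and 51.3 ± 10.1 CPM (SD, n = 3). The BLM+HBO mean was 48.9% of the BLM mean, and the log2 fold change was -1.03 (SE 0.18) by edgeR. The counts behind these levels ran from 789 to 2484 reads per library, so counting error was small beside the spread between mice. Gadd45g was the only one of the 10 genes that was called, and the only one whose groups did not overlap. Beside these counts stand the 2.89% of tested genes called lower and the 8.77% whose groups did not overlap (4.72% lower and 4.05% higher). No reading is drawn from them, because this difference chose the set. The estimate was -1.19 without BLM+HBO 2, the library nearest to the BLM mice, -0.91 without BLM+HBO 1 and -0.88 without BLM 3, the library with the highest Gadd45g level.

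Several cell type markers differed between the same groups, and lung tissue cannot tell fewer cells of a type from less RNA per cell. Beside the counts called below stand 2.89% of tested genes called lower and 3.4% called higher. Of 10 fibroblast markers, 6 were called lower and 1 higher, and their summed level ran from 6749 to 10790 CPM in BLM and from 2847 to 7126 CPM in BLM+HBO. Of 12 macrophage markers, 7 were called lower, with sums of 1965 to 3641 CPM and 1315 to 2079 CPM. Within BLM+HBO, BLM+HBO 2 had the highest of both sums and of Gadd45g, whereas within BLM the fibroblast sum was highest in BLM 1, the macrophage sum in BLM 2 and Gadd45g in BLM 3. Of 8 NK cell markers, 7 were called higher, with sums of 12.3 to 33.9 CPM and 33.3 to 115 CPM, and of 14 tested heart muscle markers, 13 were called higher, with sums of 74.8 to 204 CPM and 178 to 784 CPM. Myl2, a heart ventricle marker that was not tested, was at 0 in 2 libraries, BLM 3 and BLM+HBO 2. Of 9 tested B and plasma cell markers, 5 were called higher, while their sum was 1130 to 1530 CPM in BLM and 905 to 1179 CPM in BLM+HBO. In each of the other 7 lists (T cell, neutrophil, AT1, AT2, airway, endothelial and erythroid markers) between 0 and 2 genes were called, and the summed ranges of all 12 lists overlapped between the groups. The part of these markers in the level of Gadd45g, and in the levels of the other genes and lists described below, was not tested.

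The groups overlapped for Gadd45b and Gadd45a. Gadd45b (chr10:80930073-80932204, plus strand), which is induced by inflammatory cytokines and restrains JNK signalling, measured 74.0, 81.3, 95.9 and 76.0 CPM in the BLM mice and 77.2, 72.1 and 92.8 CPM in the BLM+HBO mice. The lowest and the highest of the 7 mice were BLM+HBO 2 and BLM 3, with group means of 81.8 ± 9.89 and 80.7 ± 10.8 CPM (SD, n = 4 and 3) and a log2 fold change of -0.02 (SE 0.13) whose sign turned when single libraries were left out. Gadd45a (chr6:67035096-67037457, minus strand), the p53 target of the family, was the least abundant, at 15.6, 21.7, 17.7 and 19.9 CPM in BLM and 16.7, 15.8 and 17.8 CPM in BLM+HBO, and its log2 fold change was -0.16 (SE 0.15). The BLM+HBO values of Gadd45a all lay within the BLM range. Of its exonic bases, 19.1% are shared with E230016M11Rik on the opposite strand, and the counting, which used no strand, left out reads that overlap both.

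By TPM, Gadd45g was the majority of the GADD45 transcripts in every BLM lung and a minority in every BLM+HBO lung. By CPM, which does not correct for length, its share was below this mark in BLM 2 (49.5%) and BLM 4 (48.5%) as well. By TPM it made up 58.5%, 57.6%, 62.3% and 56.6% of the summed TPM of the family in BLM 1 to BLM 4 and 38.2%, 49.3% and 38.4% in BLM+HBO 1 to BLM+HBO 3. Gadd45b took 34.1% ± 1.26 (SD, n = 4) of the family without HBO and 48.9% ± 5.69 (SD, n = 3) with it, and was the more abundant of the pair in BLM+HBO 1 and BLM+HBO 3 only. Gadd45a took 7.13% ± 1.39 and 9.17% ± 0.861. The family summed to 423, 441, 542 and 428 TPM in the BLM mice and to 282, 337 and 327 TPM in the BLM+HBO mice, which do not overlap. These shares contain the Gadd45g level that chose the set and are a description. The 3 coding sequences, of 498, 483 and 480 bases for Gadd45a, Gadd45b and Gadd45g, were identical at 60.5% to 64.9% of aligned positions, and the longest stretch that any pair had in common was 17 bases.

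**Figure D2:**
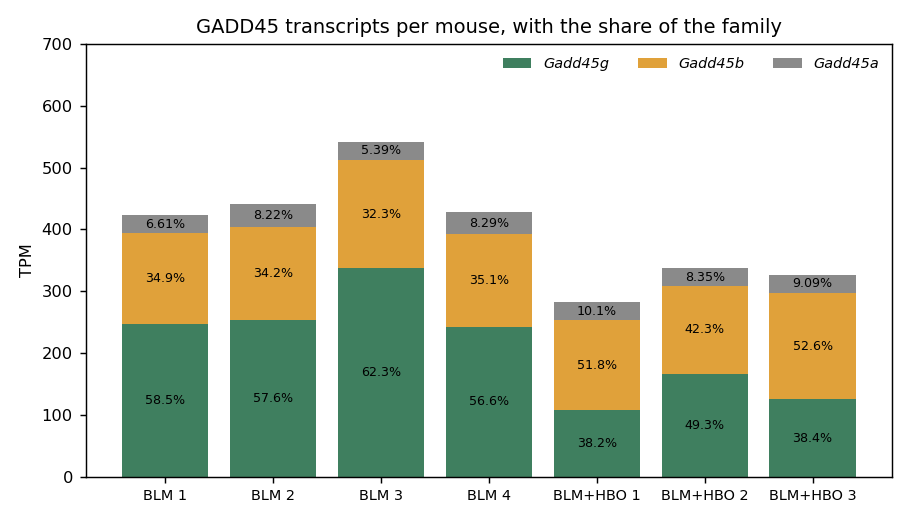
Stacked bars of the TPM of Gadd45g, Gadd45b and Gadd45a in each of the 7 mice, with the percent of the family total written in each segment. Gadd45g holds 56.6% to 62.3% of the family in the BLM mice and 38.2% to 49.3% in the BLM+HBO mice, while the Gadd45b segment keeps a similar height.

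The p53 target with the highest CPM, Cdkn1a (chr17:29090976-29100727, plus strand), encodes the CDK inhibitor p21, which arrests the cell cycle. Its level was 334, 283, 384 and 319 CPM in BLM 1 to BLM 4 and 203, 335 and 371 CPM in BLM+HBO 1 to BLM+HBO 3. A single mouse, BLM+HBO 1, lay below the BLM range, and the other two lay inside it. The means of 330 ± 41.6 and 302.6 ± 88.4 CPM gave a log2 fold change of -0.13 (SE 0.20), which was 0.10 without BLM+HBO 1. Phlda3 (chr1:135766119-135769136, plus strand), which encodes a p53-induced repressor of AKT signalling, had the same mouse lowest, with 155, 152, 176 and 146 CPM in BLM and 96.6, 136 and 168 CPM in BLM+HBO. Its log2 fold change was -0.23 (SE 0.17), -0.05 without BLM+HBO 1 and -0.44 without BLM+HBO 3.

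Trp53inp1 (chr4:11156431-11174379, plus strand), whose product takes part in autophagy and cell death under stress, ran the opposite way in that mouse. It measured 159, 132, 116 and 127 CPM in BLM and 220, 133 and 138 CPM in BLM+HBO, so that BLM+HBO 1 was the highest of the 7 mice. Its log2 fold change of 0.29 (SE 0.19) was 0.02 without this library. BLM+HBO 1 was also the library furthest from the BLM mice on the first principal component. It had the highest summed T cell (134 CPM), NK cell (115 CPM), neutrophil (517 CPM) and heart muscle (784 CPM) markers of the 7 mice. Its fibroblast (2847 CPM) and macrophage (1315 CPM) sums were the lowest. The part of these in its values was not tested.

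The feedback genes of p53 overlapped between the groups. Mdm2 (chr10:117688875-117710758, minus strand), which encodes the ligase that degrades p53, measured 86.7, 74.7, 114 and 110 CPM in BLM and 103, 121 and 115 CPM in BLM+HBO, with a log2 fold change of 0.23 (SE 0.15). Both BLM+HBO 2 and BLM+HBO 3 exceeded every BLM mouse, and BLM+HBO 1 lay inside their range. Ccng1 (chr11:40748552-40755311, minus strand), which encodes cyclin G1, a partner of the phosphatase PP2A that acts on MDM2, ran from 230.2 to 279 CPM in BLM and from 259 to 264 CPM in BLM+HBO, and its log2 fold change was 0.09 (SE 0.11).

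For Bax and Eda2r, no BLM+HBO mouse left the range of the BLM mice. Bax (chr7:45461697-45466898, minus strand) encodes the protein that permeabilizes the outer mitochondrial membrane in apoptosis and measured 71.4, 75.1, 93.2 and 75.0 CPM in BLM and 80.5, 79.1 and 89.5 CPM in BLM+HBO, with a log2 fold change of 0.08 (SE 0.12). Gm45808 on the same strand shares 12.2% of its exonic bases, and the counting left out reads that overlap several genes. Eda2r (chrX:97333840-97377216, minus strand), a receptor of the TNF receptor superfamily, was the lowest of the 10 genes and was set by a single library, with 24.9, 12.2, 11.2 and 9.90 CPM in BLM and 11.5, 11.8 and 12.2 CPM in BLM+HBO. BLM 1 stood above all other mice, and the log2 fold change of -0.30 (SE 0.30) became 0.09 without it.

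**Figure D3:**
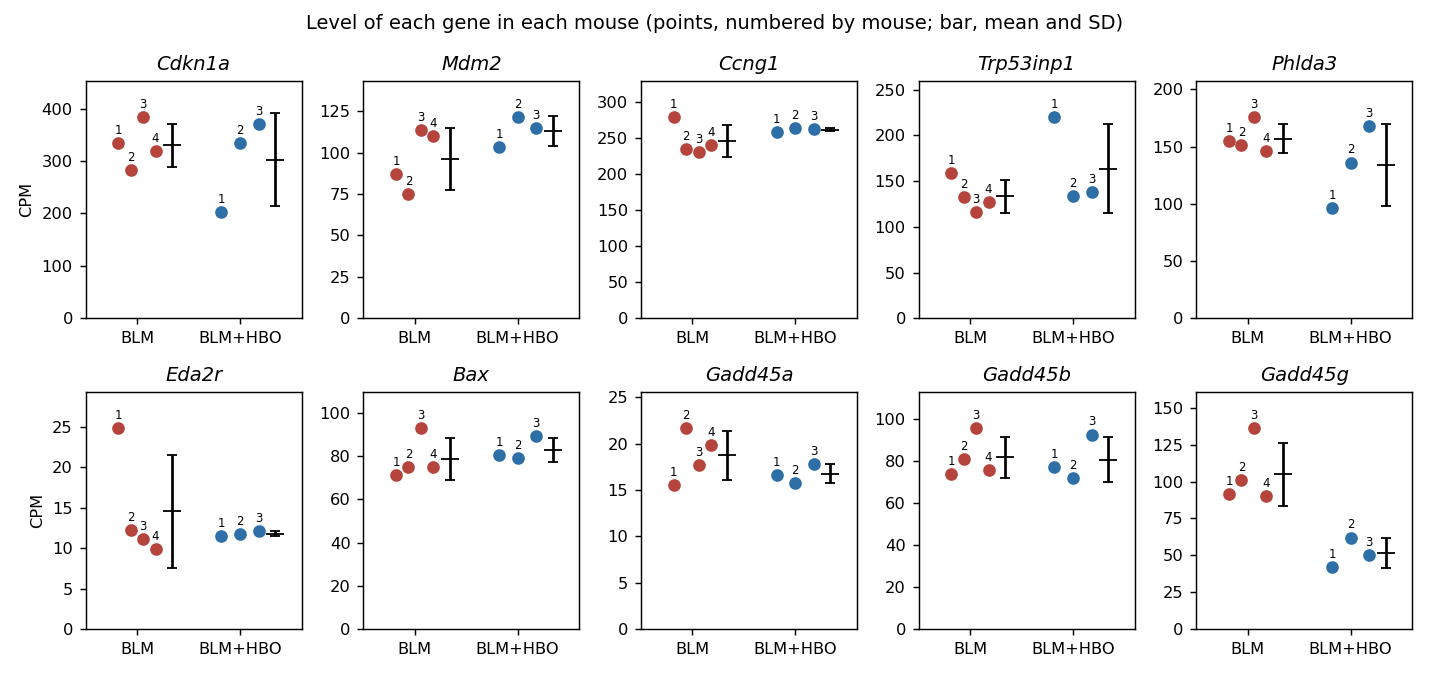
Level of each of the 10 genes in CPM, with 1 panel per gene, 1 point per mouse numbered by replicate, and the mean with SD beside each group. Only the Gadd45g points of the 3 BLM+HBO mice, between 42.0 and 62.0 CPM, lie wholly below those of the 4 BLM mice, between 90.4 and 136 CPM.

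Across the set, 6 of the 10 estimates were below 0 and 4 above, compared with 48.8% of tested genes below 0. The median was -0.07 on the log2 scale, and 0.01 over all tested genes. The sign of the median depended on single libraries, as it was 0.01 without BLM 3 and 0.02 without BLM+HBO 1.

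**Figure D4:**
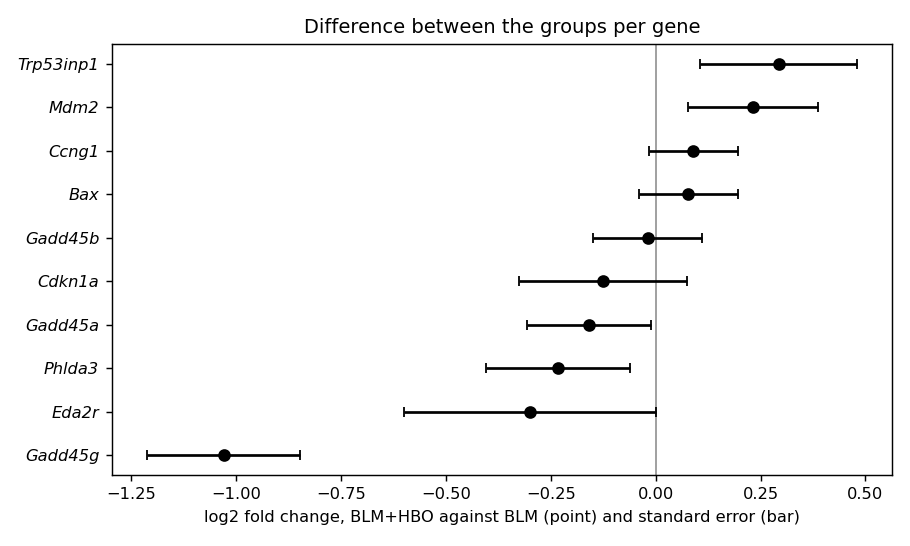
Log2 fold change of BLM+HBO against BLM (horizontal axis, points) with its standard error (bars) for each of the 10 genes, by edgeR. Gadd45g lies at -1.03, and the other 9 genes lie between -0.30 and 0.29.

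In TPM, the order of the genes placed Phlda3 first in both groups, at 306 ± 18.2 TPM (SD, n = 4) without HBO and 259 ± 66.8 TPM (SD, n = 3) with it. In BLM it was followed by Cdkn1a at 282 ± 33.9 TPM, Gadd45g at 270.2 ± 45.1 TPM and Ccng1 at 214 ± 27.5 TPM, and the ranges of these neighbours overlapped. Gadd45b (156 TPM) and Bax (151 TPM) came next with overlapping ranges, then Trp53inp1 (62.8 TPM) with Mdm2 (57.6 TPM), Gadd45a (32.2 TPM) and Eda2r (7.57 TPM). The ranges over the mice did not overlap between Ccng1 and Gadd45b, between Bax and Trp53inp1, between Mdm2 and Gadd45a, or between Gadd45a and Eda2r. In BLM+HBO, Gadd45g moved from the third to the sixth place, at 133 ± 30.1 TPM, where its range overlapped that of Gadd45b (153 TPM) and lay above that of Trp53inp1 (76.4 TPM). The remaining genes kept their order except that Bax (159 TPM) stood before Gadd45b. Even at this level Gadd45g exceeded 93.6% of the tested genes, compared with 97.0% in BLM, and Eda2r exceeded 35.6% and 30.8%. TPM used full gene lengths, although reads in exonic bases shared with other genes were left out. Such bases were 7.7% of Cdkn1a, 12.2% of Bax and 19.1% of Gadd45a, so the TPM of these genes may be too low. The order of Phlda3 and Cdkn1a, and in BLM that of Gadd45b and Bax, may therefore depend on the length used.

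Among the mice, the 10 genes did not vary as 1 group. Over the 7 mice, the log2 CPM of Cdkn1a correlated with that of Phlda3 (Pearson r = 0.93, and 0.94 after the group means were removed) and inversely with that of Trp53inp1 (r = -0.84). A single library, BLM+HBO 1, weighed heavily in these 3 values. It lay at -0.694 (Cdkn1a), -0.698 (Phlda3) and 0.729 (Trp53inp1) from the BLM mean on the log2 scale. For these genes the other mice lay between -0.212 and 0.257. Removing the group means leaves this in place, and r without BLM+HBO 1 was not computed. Bax went with Gadd45b (r = 0.86), whereas Gadd45g had its closest member in Phlda3 at r = 0.67, at rank 1852 among 15804 genes, followed by Cdkn1a (0.52) and Gadd45a (0.37). These values contain the group difference that chose the set, and with the group means removed they were 0.58 for Phlda3, 0.65 for Cdkn1a, which was then the closest, 0.62 for Bax and -0.14 for Gadd45a. The largest r of Gadd45g in size was inverse, with Trp53inp1, at -0.70, and at -0.75 with the group means removed. For Cdkn1a the members after Phlda3 were Gadd45g (0.52) and Gadd45b (0.44). The points share their libraries and these values are descriptions over 7 mice.

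The genes whose pattern was most like that of Gadd45g, out of 15804 with a mean of at least 1 CPM, were Sdsl (r = 0.99), Card19 (0.99), Cavin3 (0.99), Tmem37 (0.98) and Cndp2 (0.98). With the group means removed, r was between 0.93 and 0.98 for these 5 genes. Since the 5 were picked by r over the same mice, high values were likely here too and are no separate support. Sdsl had only 35 to 67 reads per library. All 5 had their highest level in BLM 3, the BLM mouse with the most Gadd45g, and their lowest in BLM+HBO 1. Those most like Cdkn1a were Trim28 (0.98), Mzf1 (0.98), Slc25a43 (0.98), Ppme1 (0.97) and Akirin2 (0.97).

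The p53 gene and its regulators are the next step of the pathway. Trp53 averaged 65.6 ± 2.27 CPM over the 4 BLM mice and 59.8 ± 4.93 CPM over the 3 BLM+HBO mice (mean ± SD), with a log2 fold change of -0.13 (SE 0.10) and an adjusted P of 0.643 by edgeR. Mdm4, whose product represses p53 without degrading it, was higher in each BLM+HBO mouse than in every BLM mouse, at 121, 103, 119 and 119 CPM against 138, 141 and 133 CPM. Its log2 fold change was 0.25 (SE 0.10), with an unadjusted P of 0.0299 and an adjusted P of 0.44 by edgeR, and the unadjusted P missed 0.05 when any 1 of BLM 2, BLM+HBO 1 and BLM+HBO 2 was left out. Over the list of 18 genes of the p53 family and its regulators, 10 estimates were lower and 8 higher, the median was -0.01, and Trp63 alone was called. That is 1 of 18 genes called and 2 without overlap, beside 6.29% and 8.77% of all tested genes. Trp63, which encodes p63 of basal epithelial cells, measured 2.22 ± 0.461 CPM in BLM and 1.30 ± 0.213 CPM in BLM+HBO, with an adjusted P of 0.442 by edgeR. Its call was kept when BLM 2 or BLM+HBO 2 was left out and lost when any other single library was. The genes with the next lowest P were Cdkn2a, which encodes p16 and ARF, at 5.33 ± 1.84 and 2.82 ± 2.27 CPM, and Trp73, at 6.84 ± 3.10 and 9.99 ± 3.28 CPM, and neither passed an unadjusted P of 0.05. Each was called when 1 library was left out, Cdkn2a without BLM+HBO 2 (log2 fold change -1.69 against -0.91) and Trp73 without BLM 3 (0.92 against 0.55).

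Of 38 other p53 targets, 28 estimates were higher and 10 lower in BLM+HBO, the median was 0.07, and 1 gene was called in each direction. These 2 of 38 genes stand beside 6.29% of all tested genes and a median of 0.01 over them. The groups of 1 of the 38 did not overlap, beside 8.77% of all tested genes. Ephx1, which encodes an epoxide hydrolase that detoxifies, was called higher and measured 142, 136, 164 and 157 CPM in BLM and 278, 208 and 285 CPM in BLM+HBO. The groups did not overlap, and its log2 fold change was 0.78 (SE 0.14) with an adjusted P of 0.423 by edgeR. Sfn, which encodes 14-3-3 sigma, an epithelial protein that holds cells in G2, was called lower, at 134, 103, 177 and 165 CPM in BLM and 51.4, 104 and 76.1 CPM in BLM+HBO. BLM+HBO 2 lay inside the BLM range, and the log2 fold change was -0.91 (SE 0.25) with an adjusted P of 0.423 by edgeR. The next genes by P were Dcxr, a reductase of sugar metabolism (log2 fold change 0.47, SE 0.22), and Polk, a DNA polymerase that copies past damaged bases (0.29, SE 0.14), and both had an unadjusted P above 0.05, which Dcxr passed without BLM 3 or BLM+HBO 2 and Polk without BLM 1.

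The proteins that GADD45 binds and the p38 and JNK kinases downstream of them were represented by 16 tested genes. Of these, 10 estimates were lower and 6 higher, with a median of -0.05, and Ccnb1 alone was called. This 1 call among 16 genes, and the 2 genes without overlap, stand beside 6.29% and 8.77% of all tested genes. Map3k4, the kinase through which GADD45 proteins reach p38, had the same mean of 32.2 CPM in both groups (SD 3.02 and 3.36), and its log2 fold change was 0.00 (SE 0.12). Ccnb1 and Cdk1, which form the kinase of mitotic entry, had log2 fold changes of -0.66 (SE 0.28) and -0.58 (SE 0.24), with unadjusted P of 0.0397 and 0.0359 by edgeR, and Cdk1 kept its unadjusted P below 0.05 only when BLM 2 or BLM+HBO 3 was the library left out. The Ccnb1 call was kept when BLM 3 or BLM+HBO 3 was left out and lost when any other single library was. Mapk12, a p38 kinase, was higher without overlap, at 26.2, 28.0, 34.3 and 34.8 CPM in BLM and 48.9, 39.2 and 42.6 CPM in BLM+HBO, with a log2 fold change of 0.50 (SE 0.14), an unadjusted P of 0.00518 and an adjusted P of 0.423 by edgeR. Map2k4, a kinase upstream of JNK, was lower without overlap by -0.14 (SE 0.09), with an unadjusted P of 0.16.

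Of the 7 other CDK inhibitor genes tested, 6 had lower estimates and none was called, and the median was -0.38. Cdkn2a stands on this list as well as among the p53 regulators. Both Cdkn2b (p15) and Cdkn2d (p19) were lower in each BLM+HBO mouse than in every BLM mouse. These 2 of 7 genes stand beside 4.72% of all tested genes that were lower without overlap. Cdkn2b measured 55.0 ± 5.31 and 41.1 ± 2.26 CPM, a log2 fold change of -0.42 (SE 0.11) with an unadjusted P of 0.00387 by edgeR, and Cdkn2d 28.8 ± 1.30 and 22.1 ± 1.09 CPM, a log2 fold change of -0.38 (SE 0.11) with an unadjusted P of 0.00618 by edgeR. Both had an adjusted P of 0.423 and differed less than 1.5-fold. Cdkn1b (p27) had the single higher estimate at 0.25 (SE 0.13), and Cdkn3 was at -0.59 (SE 0.33), and at -0.94 and called without BLM+HBO 3.

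The genes that p21 shuts off through the DREAM complex, which represses cell division genes, gave 22 lower and 2 higher estimates out of 24, with a median of -0.41. The median became -0.21 when BLM+HBO 1 was left out and -0.76 when BLM+HBO 3 was. Beside the 22 lower estimates stand 48.8% of tested genes below 0. Of the 24, 8 had an unadjusted P below 0.05, all lower, beside 10.7% of tested genes in either direction. Called were 4 of 24, all lower, beside 2.89% of tested genes. The groups of 3 did not overlap, all lower, beside 4.72% of tested genes. Cdc25c had the lowest P and was called, at 3.31 ± 0.67 and 1.86 ± 0.574 CPM (log2 fold change -0.82, SE 0.31). Ccnb2 was called at -0.60 (SE 0.25), while Aurka at -0.56 (SE 0.23) differed less than 1.5-fold and was not. Ccnb1, which was called, and Cdk1, which was not, stand on this list as well as among the GADD45 partners. All adjusted P on this list were at least 0.423 by edgeR. The called count was 0 when any 1 of BLM 1, BLM 4, BLM+HBO 1 and BLM+HBO 2 was left out, and 16 when BLM+HBO 3 was, so it rested on single libraries.

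Immediate-early genes, which like Gadd45b and Gadd45g respond fast to stimuli, gave 12 lower and 8 higher estimates out of 20, with a median of -0.09 and 3 calls. These 3 of 20 genes, and the 2 without overlap, stand beside 6.29% and 8.77% of all tested genes. Myc, at 34.8 ± 7.61 and 19.3 ± 5.14 CPM, was called lower without overlap (log2 fold change -0.85, SE 0.22, adjusted P 0.423 by edgeR), and Egr2 was called lower with overlap (-0.65, SE 0.26). The Egr2 call was kept when BLM 2, BLM 3 or BLM+HBO 2 was left out and lost when any other single library was. Nr4a1 was called higher, at 39.3, 36.9, 57.7 and 134 CPM in BLM and 184, 73.2 and 155 CPM in BLM+HBO, and its call was kept when BLM 4 or BLM+HBO 2 was left out and lost when any other single library was. The Nr4a1 call was also lost with DESeq2, at an unadjusted P of 0.0889. Junb was lower without overlap at -0.40 (SE 0.15) and was not called.

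**Figure D5:**
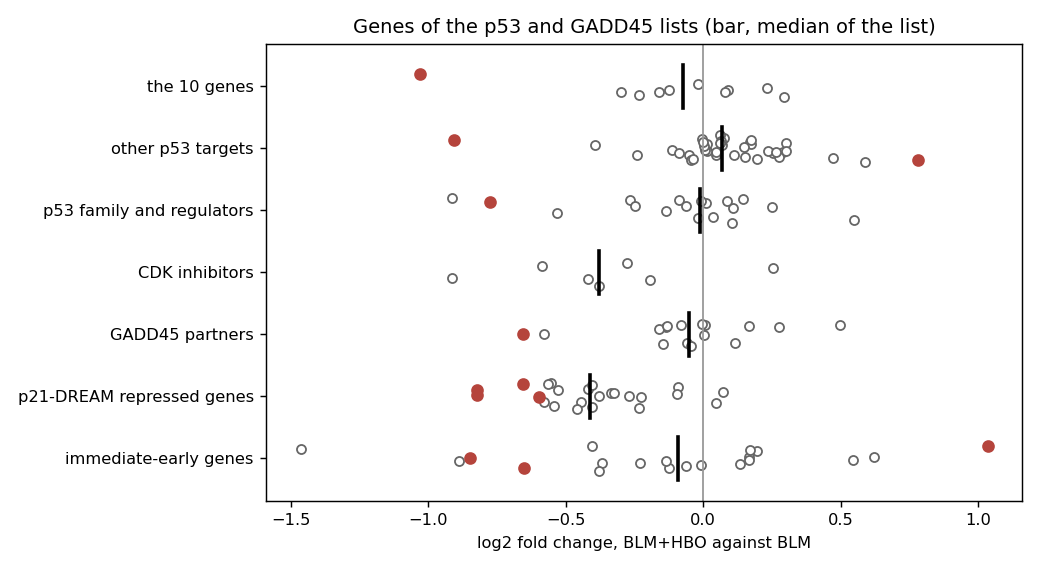
Log2 fold change of BLM+HBO against BLM (horizontal axis) for every tested gene of the 7 lists, with filled points for genes called at an unadjusted P below 0.05 and a fold change above 1.5, and a bar at the median of each list. The medians run from -0.41 for the p21-DREAM genes to 0.07 for the other p53 targets, and Gadd45g is the only filled point among the 10 genes.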

How the data were processed

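RNA was sequenced from right lung lobes of 4 BLM and 3 BLM+HBO mice as paired ends on an Illumina NovaSeq after NEBNext Ultra preparation. Reads were trimmed (Trim Galore) and aligned to GRCm38 (HISAT2 2.2.0) by the authors, and the deposited values are raw counts per gene from featureCounts at default settings, which ignore strand and drop reads that map or overlap more than once. The annotation release is not given in the sources used here. Symbols came from GENCODE vM21.

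The counts summed to 18436336 to 19002242 per BLM mouse and 18157161 to 26365969 per BLM+HBO mouse. Low genes were removed by filterByExpr (minimum count 10, minimum total 15), and the rest were scaled by TMM and tested with edgeR 4.0.16 (R 4.3.3) by the quasi-likelihood test with Benjamini-Hochberg adjustment over all tested genes, with BLM as reference. A gene was called at an unadjusted P below 0.05 and a fold change above 1.5, as in the study. CPM used TMM-scaled library sizes, TPM the deposited gene lengths and log2 CPM a prior count of 2. Labels number the libraries within each group, and each library was taken as a separate mouse. The tests were tested on simulated data. The 10 genes and all lists were chosen with earlier results of these data known, and the P values of the lists are therefore no independent support. Named beside the 10 genes were Trp53, Mdm4, Map3k4, up to 4 genes per list with the lowest P and, for likeness, the 5 genes closest to Gadd45g and to Cdkn1a. Myl2 and the lost or kept calls of single genes were added after their values were seen. Alternatives were DESeq2 1.42.0, RLE factors, no filter, a replicate block and leaving out each mouse. Promoters came from RefSeq (GRCm38.p6).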

Additional observations from a re-analysis of the deposited data

Results flagged for a closer look

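Among 35 sets of the 4 BLM values of a named gene on the log2 CPM scale, 2 held a mouse far from the other 3 by Dixon's criterion, where chance alone gives about 1 in 20. Mdm4 was low in BLM 2, at 6.69 against 6.89 to 6.92, with a gap of 0.877 of the whole range. Without BLM 2 the Mdm4 estimate was 0.20, and its unadjusted P no longer passed 0.05 by edgeR. Trp73, the p73 member of the p53 family, was high in BLM 3, at 3.53 against 2.37 to 2.51, with a gap of 0.88 of the range. Without BLM 3 the Trp73 estimate was 0.92 instead of 0.55, with an unadjusted P of 0.00853 by edgeR. The criterion was applied to the BLM group only, and the BLM+HBO group of 3 mice was not examined.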

How the results depend on the processing

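The log2 fold change of Gadd45g, whose difference chose the set, ran from -1.19 to -0.88 over the 11 alternatives, and 31 of 35 named genes kept their direction throughout. The calls at an adjusted P below 0.05 depended on the tool: edgeR gave 0, edgeR without the filter on low counts 387, and DESeq2 155, or 151 without rows of 0 and 147 with its own limit also set to 0.05, of which the first was chosen after all 3 were seen. Leaving out 1 mouse gave 0 to 267 genes (267 without BLM+HBO 2). Of the 10 genes, 1 passed at an adjusted P with DESeq2 and without the filter, and 0 to 1 with a mouse left out, and this gene was Gadd45g, so nothing is read from the count. Genes called at the unadjusted limits numbered 1940 without the filter and 659 to 1914 with a mouse left out, against 1098.

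For the lists, DESeq2 called 2 GADD45 partners, 5 p21-DREAM genes and 2 immediate-early genes, without Nr4a1. With edgeR without the filter there were 1 CDK inhibitor and 6 immediate-early genes. With a mouse left out, calls ran from 2 to 4 for other p53 targets, 0 to 2 for p53 regulators, 0 to 2 for GADD45 partners, 0 to 1 for CDK inhibitors, 0 to 16 for p21-DREAM genes and 1 to 5 for immediate-early genes. Computed from CPM, the Gadd45g share of the family was 50.8% in BLM and 34.5% in BLM+HBO, because length was not corrected. With a mouse left out the shares ran from 57.6% to 59.5% and from 38.3% to 43.8%.

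Signs turned with a mouse left out for Cdkn1a (-0.298 to 0.096, the latter without BLM+HBO 1), Eda2r (-0.445 to 0.09, the latter without BLM 1) and Gadd45b (-0.137 to 0.067, with 0.067, 0.012 and 0.054 without BLM 3, BLM+HBO 1 and BLM+HBO 2). Map3k4 was at -0.006 with DESeq2, -0.002 with RLE and -0.004 without the filter, and ran from -0.083 to 0.072 with a mouse left out. The median of the 10 genes ran from -0.174 to 0.016, above 0 without BLM 3 or BLM+HBO 1, that of the p53 regulators from -0.052 to 0.013, that of the p21-DREAM genes from -0.764 to -0.214, and that of the immediate-early genes from -0.232 to 0.119. The causes were not tested.

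The labels use the numbers 1 to 3 in both groups. Deviations from the group means correlated at -0.008, -0.066 and 0.161 for numbers 1, 2 and 3, and BLM 1 correlated best with BLM+HBO 2 (0.165). These values showed no clear sign that the numbers pair the mice, but with so few mice they cannot exclude a pairing. With the replicate block, which left BLM 4 without a partner, 1258 genes were called, Gadd45g stood at -1.09, 0 p53 regulators were called, Ccnb1, Mdm4, Trp63, Cdc25c, Junb and Egr2 no longer passed an unadjusted P of 0.05, and the immediate-early median was 0.076. With 3 and 4 mice, small differences in the other 9 genes could not be told from 0, which does not show that they were absent.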
